A study of Mus musculus with 6 samples.

Results

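The genes described here encode the proteins of the mitochondrial ribosome. They were taken by name: every gene whose single symbol in the array's annotation begins with Mrpl or Mrps followed by a digit, with the brightest probe set by mean over all arrays standing for each gene. The rule gave 74 of the 12393 genes with a single symbol, 47 named Mrpl after the large subunit and 27 named Mrps after the small subunit. The rule uses names and brightness, not a measured difference. RNA came from CD4+CD25+ regulatory T cells, the helper T cell subset that restrains immune responses, separated magnetically from Balb/c mouse cells. One group of 3 arrays was from wild-type (WT) mice and the other group of 3 from mice lacking Mbd2 (MBD2-/-), a protein that binds methylated DNA. Both groups share the Balb/c background, and the labels give neither age nor sex nor whether several mice were pooled for a sample. The submitters called the samples independent.

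Mitochondria carry their own small genome, and the proteins it encodes, all of them hydrophobic subunits of the respiratory chain and of ATP synthase, are made on a ribosome that is separate from the cytosolic one. Its RNAs come from the mitochondrial genome, while its proteins are encoded in the nucleus, made in the cytosol and imported. Part of these proteins have counterparts in bacterial ribosomes and part arose in the mitochondrial lineage. T cells need mitochondrial translation to build respiratory capacity when they are activated, and regulatory T cells rely heavily on mitochondrial respiration.

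Expression is given as log2 units of the deposited values, in which a difference of 1 is a doubling. Wild-type replicate 3 stood apart on the whole array. Its correlation with the other 5 arrays lay between 0.753 and 0.769, against 0.956 to 0.997 for all pairs without it, and its values had a narrower spread, with an SD of 1.37 against 1.79 to 1.84. The main comparison is therefore given with 6 arrays and with 5 arrays, without that replicate. Knockout replicate 2 had the next lowest correlations, and without both the lowest was 0.983. The 2 probe sets of Mbd2 gave lower values in the 3 knockouts than in any wild-type array. The T cell markers Cd3e and Cd4 and the regulatory T cell markers Foxp3, Il2ra and Ctla4 were all well inside the measured range, the lowest being Il2ra at 6.49 in knockout replicate 2. Ikzf2, of the same list of 12 markers, was too dim to be tested (mean 5.16). With 5 arrays all 12 were lower in knockout, with a median of -0.77 and Foxp3 at -1.19. Nrp1 and Itgae had limma adjusted p-values of 0.0349 and 0.0321. With 6 arrays 10 of the 12 were lower, with a median of -0.46. Granulocyte markers, by contrast, were much higher in the knockout samples, and their values are given beside the results they touch. In such bulk samples fewer cells of a type and less RNA per cell cannot be told apart.

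The stretches of DNA just before 4 of these genes are shown as examples; they do not stand for the whole family. Mrps12, Mrpl20 and Mrpl9 had the smallest p-values of all members without wild-type replicate 3, and Mrpl12 encodes the protein of the flexible stalk that recruits translation factors. Each line gives the 250 bases before the gene's start as RefSeq annotates it (build GRCm38.p6), 5′ to 3′ along the gene. Capitals mark matches on either strand to 5 short motifs: CCGGAAG, the core bound by ETS factors such as GABP; GCGCATGCG, the core bound by NRF1; AAGATGGC, bound by YY1; the E-box CACGTG, bound by Myc; and the CCAAT box. The Mrps12 stretch lies at chr7:28741822-28742071 on the minus strand, and those of the other genes lie on the plus strand, at chr4:155802628-155802877 for Mrpl20, chr11:120484387-120484636 for Mrpl12 and chr3:94443086-94443335 for Mrpl9.
Mrps12: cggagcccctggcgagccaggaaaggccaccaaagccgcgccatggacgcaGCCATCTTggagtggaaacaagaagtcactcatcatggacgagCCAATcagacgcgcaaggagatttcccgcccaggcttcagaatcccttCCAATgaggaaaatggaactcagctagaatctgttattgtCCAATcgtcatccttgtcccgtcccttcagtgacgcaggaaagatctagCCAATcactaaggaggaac
Mrpl20: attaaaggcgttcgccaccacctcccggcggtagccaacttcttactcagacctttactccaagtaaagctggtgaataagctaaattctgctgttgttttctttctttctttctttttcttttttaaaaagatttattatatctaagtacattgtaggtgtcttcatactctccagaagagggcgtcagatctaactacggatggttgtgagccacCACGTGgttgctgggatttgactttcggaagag
Mrpl12: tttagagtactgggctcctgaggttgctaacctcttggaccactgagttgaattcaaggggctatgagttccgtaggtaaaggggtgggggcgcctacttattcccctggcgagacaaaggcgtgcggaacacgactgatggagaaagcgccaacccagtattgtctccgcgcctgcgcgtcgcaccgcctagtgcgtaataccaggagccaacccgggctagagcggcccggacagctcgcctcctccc
Mrpl9: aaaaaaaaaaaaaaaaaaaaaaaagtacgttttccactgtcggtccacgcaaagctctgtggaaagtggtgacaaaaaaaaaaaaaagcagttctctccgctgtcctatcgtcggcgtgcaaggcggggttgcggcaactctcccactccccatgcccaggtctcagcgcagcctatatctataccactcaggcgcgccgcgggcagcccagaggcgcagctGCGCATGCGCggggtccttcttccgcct

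The 4 promoters differ from each other. That of Mrps12 holds 4 CCAAT boxes and a YY1 core, and that of Mrpl20 holds an E-box and has the lowest GC content of these 4, at 41.6%. That of Mrpl9 holds an NRF1 match that reads as 2 overlapping matches, 1 on each strand, and that of Mrpl12 holds none of the 5 motifs. Their CpG dinucleotides, the sites of DNA methylation in mammals, number 12 in Mrps12, 8 in Mrpl20, 18 in Mrpl12 and 19 in Mrpl9.

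Promoters were found for 65 of the 74 genes. Their median was 16 CpG dinucleotides in 250 bases, with a range from 4 to 35, against a median of 14 for the 9883 genes of the array and 6 for all 27025 genes in the promoter table. At least 10 CpG dinucleotides were present in 83.1% of the members' promoters, in 63.3% of those of the array's genes and in 38.2% of all. The ETS core was present in 15 of 65 members (23.1%), against 11.6% of the array's genes and 7.05% of all. The NRF1 core was present in 7 members (10.8%), against 2.44% and 1.49%, namely in Mrpl9, Mrpl10, Mrpl17, Mrpl22, Mrpl32, Mrpl39 and Mrps18b. The YY1 core occurred in 4 members (6.15%, against 1.79% and 1.59%). The E-box was present in 7.69% of members, 7.74% of the array's genes and 6.05% of all, and the CCAAT box in 35.4%, 35.8% and 34.5%. These shares describe sequence only; no methylation or binding was measured on the arrays.

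The main comparison asked whether these genes differ between knockout and wild-type cells. No member passed the threshold in either comparison. With 6 arrays, 0 of 74 members had an adjusted p under 0.05 in limma, where 0.122% of the 8190 tested genes did, and 0 had an unadjusted p under 0.05, where 4.48% of genes did. With 5 arrays, 0 of 74 passed again, where 1.58% of genes did, and 4 (5.41%) had an unadjusted p under 0.05, where 22.7% of genes did. All 74 members passed the filter on dim probe sets, so these counts cover every member. The lowest adjusted p over the members was 0.829 with 6 arrays and 0.0944 with 5 arrays.

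The differences were small without wild-type replicate 3. They ran from -0.44 for Mrpl9 to 0.44 for Mrpl20, with a median of 0.04 and quartiles of -0.05 and 0.13, and 44 of 74 members were higher in knockout. Over all genes tested the median was -0.06, and 40.1% were higher. The SE of a member's difference was 0.13 at the median, and the 95% interval of the difference lay within 1 log2 unit of 0 for 74 of 74 members and within a 1.5-fold change for 63. With 6 arrays the median was 0.38 and 68 of 74 members were higher, against a median of 0.16 and 64.3% over all genes tested, but the median SE was 0.34 and the interval stayed within 1 log2 unit for only 24 members. Quantile normalization of the deposited values of all 6 arrays brought the 6-array median of the members to 0.14, with 54 higher. That of all genes tested came to 0.05, with 54.4% higher. When wild-type replicate 3 was dropped only after that normalization, the members' median was 0.08, with 54 higher. All genes tested then had a median of -0.03, with 44.1% higher. An unadjusted p under 0.05 was reached by 11 members, but the share of all genes was not counted in this setting. In the 5-array fit of the deposited values that share was 22.7%.

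**Figure D1:**
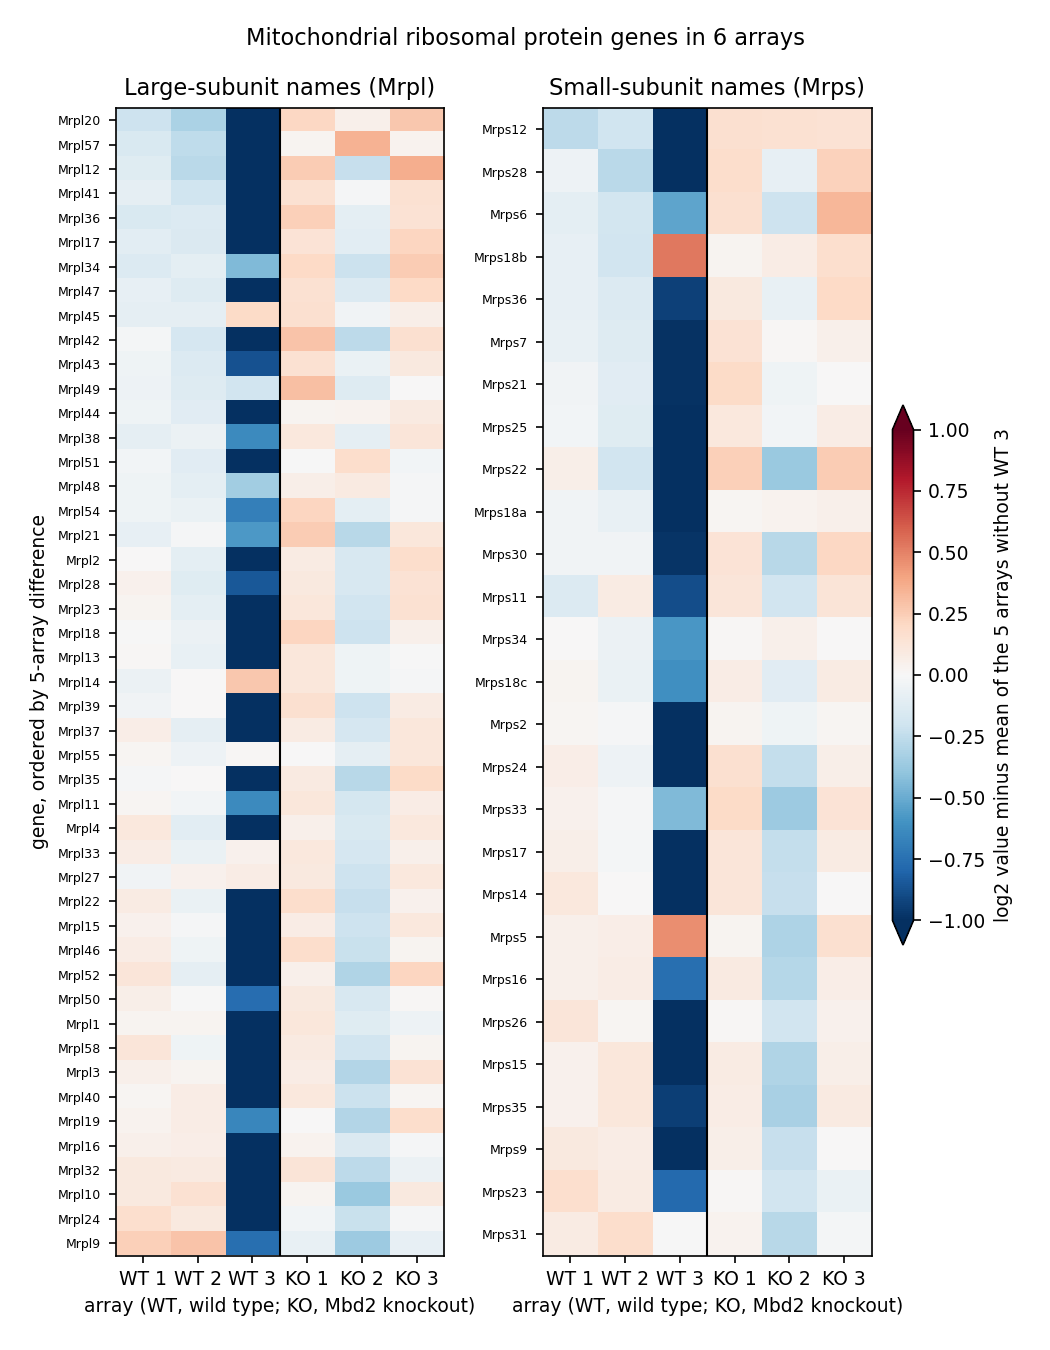
Log2 value of each of the 74 genes in each array minus the gene's mean over the 5 arrays other than WT 3, in colour from -1 to 1 (arrowheads: beyond), with Mrpl genes on the left and Mrps genes on the right, ordered by the 5-array difference. WT 3 is the lowest array for 66 of 74 genes, and KO 2 is the lowest of the knockouts for 66 of 74.

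Wild-type replicate 3 was the lowest of the 6 arrays for 66 of 74 members (89.2%), as it was for 64.7% of all genes tested. The members lay a median of 1.08 below their mean in the other 5 arrays, and 41 of 74 lay more than 1 below it. The farthest was Mrps17, a small-subunit protein with a bacterial counterpart, at 6.05 in wild-type replicate 3 against 8.30 and 8.22 in the other wild-type arrays. Mrpl32, a large-subunit protein that is trimmed by a protease of the inner membrane after import, was at 6.79 against 8.62 to 9.01.

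Not every member followed that array. Wild-type replicate 3 was not the lowest for Mrpl14, Mrpl27, Mrpl33, Mrpl45, Mrpl55, Mrps18b, Mrps31 and Mrps5, and it was the highest of all arrays for Mrpl14, Mrpl45, Mrps18b and Mrps5. Mrps5 had 6.80, 6.81 and 7.21 in wild type and 6.77, 6.44 and 6.91 in knockout. Mrps18b, 1 of the mammalian relatives of a single bacterial protein, had 7.15, 7.04 and 7.76 in wild type and 7.26, 7.31 and 7.40 in knockout. The members thus did not shift by a common amount in this array.

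Knockout replicate 2 was the lowest of the knockout arrays for 66 of 74 members (89.2%), against 55.3% of all genes tested. The members lay a median of 0.28 below the mean of knockout replicates 1 and 3. By contrast the gap between knockout replicates 1 and 3 was 0.06 at the median, and that between wild-type replicates 1 and 2 was 0.07. The gap was largest for Mrps22, a small-subunit protein specific to mitochondria, with 7.41, 6.80 and 7.42 in knockout replicates 1, 2 and 3. The 8 members that were not lowest in replicate 2 were Mrpl44, Mrpl48, Mrpl51, Mrpl57, Mrps12, Mrps18a, Mrps18b and Mrps34.

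Other cell types' markers differed in the same array. The summed linear signal of 12 myeloid markers was 2944 and 3321 in wild-type replicates 1 and 2, 1843 in wild-type replicate 3, and 11510, 20850 and 9841 in the knockouts, and 12 of 12 were highest in knockout replicate 2 among the knockouts. The same held for 8 of 9 B cell markers (4742, 10520 and 4788 in the knockouts against 976 to 2474 in wild type), 5 of 5 plasma cell markers (10840, 21600 and 10980 against 1517 to 7775) and 7 of 8 markers of CD8 T and NK cells (2054, 4199 and 1550 against 612.7 to 1482). The 14 granulocyte markers summed to 25600, 36220 and 24940 in the knockouts against 719.2 to 1655 in wild type, and 9 of them were highest in knockout replicate 2. The 12 T cell and regulatory T cell markers were lowest there, at 4382, against 6716 and 6906 in the other knockouts and 10130, 10170 and 4479 in wild type. The sum of 4 erythroid and platelet markers ranged from 96.01 to 113.5 outside wild-type replicate 3, where it was 258.8. Only 1 of these 4 genes passed the filter on dim probe sets, Hba-a1. It was at 7.45 in wild-type replicate 3 and at 4.62 to 4.93 in the other arrays. Its mean thus passed the cutoff of 5.18 only through wild-type replicate 3. Among the other listed genes too dim to be tested, Ppargc1a, Pax5 and Tyms were also highest in that array. They were at 6.04, 6.41 and 5.86 there, against at most 4.34, 4.83 and 4.37 in the other arrays. Itgam and Ikzf2, also too dim, were not highest there. Whether erythroid cells were present in that sample was not tested. The part of all these other cell types in the members' values was not tested.

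Among the large-subunit proteins, Mrpl20 had the largest positive difference without wild-type replicate 3. It has a bacterial counterpart that binds ribosomal RNA early in assembly. Its values were 8.19, 8.08 and 6.72 in wild type and 8.61, 8.45 and 8.67 in knockout, so all knockout arrays lay above all wild-type arrays. The difference was 0.44 with 5 arrays (SE 0.11, 1.36-fold, limma adjusted p = 0.109) and 0.91 with 6 arrays (SE 0.42, limma adjusted p = 0.829).

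Mrpl57, a protein found only in mitochondrial ribosomes, had 8.83, 8.73 and 7.75 in wild type and 9.01, 9.33 and 9.02 in knockout, again without overlap. Knockout replicate 2 was the highest array for it, unlike for most members. Its difference was 0.34 with 5 arrays (SE 0.13, limma adjusted p = 0.218) and 0.68 with 6 (SE 0.34). Mrpl41, also specific to mitochondria, had 8.54, 8.43 and 7.29 against 8.78, 8.62 and 8.78, a difference of 0.25 with 5 arrays (SE 0.10) and 0.64 with 6 (SE 0.37).

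Mrpl12, the stalk protein, had 8.64, 8.49 and 7.73 in wild type and 9.01, 8.53 and 9.12 in knockout. Knockout replicates 1 and 3 lay above the wild-type arrays, while knockout replicate 2 fell between wild-type replicates 1 and 2. The difference was 0.33 with 5 arrays (SE 0.19, limma adjusted p = 0.371) and 0.60 with 6. Mrpl44, which has the fold of a double-stranded RNA nuclease, had 7.64, 7.57 and 6.48 against 7.71, 7.72 and 7.77. Its 5-array difference was 0.12 (SE 0.09, limma adjusted p = 0.449), and 2 dimmer probe sets of the gene gave -0.03 and -0.08.

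The lowest difference of all members without wild-type replicate 3 belonged to Mrpl9, a large-subunit protein with a bacterial counterpart. Its values were 7.26, 7.31 and 6.27 in wild type and 6.95, 6.66 and 6.94 in knockout. All knockout arrays lay below wild-type replicates 1 and 2 and above wild-type replicate 3. The 5-array difference was -0.44 (SE 0.12, limma adjusted p = 0.134), and a dimmer probe set of the gene gave -0.38 (SE 0.10, limma adjusted p = 0.118). With 6 arrays the brighter probe set gave -0.10 and the dimmer -0.59, and the lowest member was Mrps5.

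Mrpl24 and Mrpl10 came next among the large-subunit genes with lower values in knockout. Mrpl24 had 9.45, 9.38 and 8.20 in wild type against 9.26, 9.06 and 9.27, and Mrpl10, the base of the stalk to which Mrpl12 binds, had 7.75, 7.81 and 5.75 against 7.68, 7.28 and 7.75. Their 5-array differences were both -0.21, with SEs of 0.11 and 0.16. With 6 arrays both were positive, at 0.19 and 0.47, with wild-type replicate 3 below all other arrays for both genes; quantile normalization turned that of Mrpl24 to -0.19. Mrpl14 and Mrpl27, lower with 6 arrays at -0.05 and -0.03, were at 0.05 and -0.0046 with 5.

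**Figure D2:**
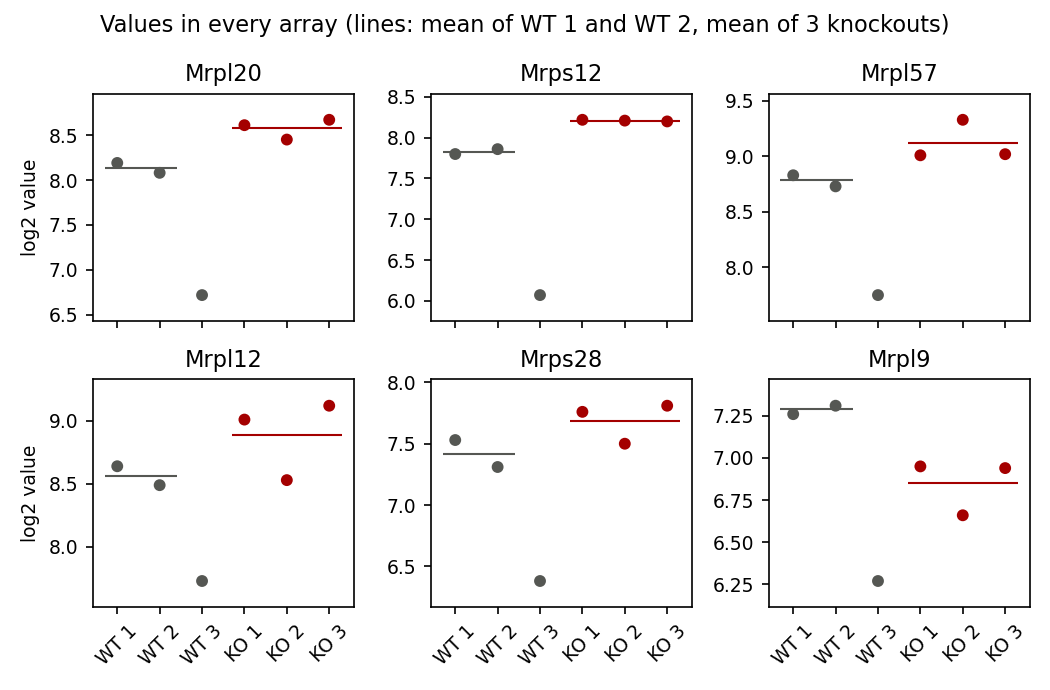
Log2 value of 6 named genes in each of the 3 wild-type (grey) and 3 knockout (red) arrays; the grey line is the mean of WT 1 and WT 2 and the red line the mean of the 3 knockouts, and each panel has its own scale. In all 6 panels WT 3 is the lowest point; the knockouts lie above WT 1 and WT 2 for Mrpl20, Mrps12 and Mrpl57 and below them for Mrpl9.

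Among the small-subunit proteins, Mrps12 had the smallest p-value of all members without wild-type replicate 3. Its bacterial counterpart sits at the decoding centre of the ribosome. Its values were 7.80, 7.86 and 6.07 in wild type and 8.22, 8.21 and 8.20 in knockout. The groups did not overlap. The difference was 0.38 with 5 arrays (SE 0.09, 1.30-fold, 95% interval 0.17 to 0.59, limma adjusted p = 0.0944) and 0.96 with 6 arrays (SE 0.50, limma adjusted p = 0.829).

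Mrps28 had 7.53, 7.31 and 6.38 in wild type and 7.76, 7.50 and 7.81 in knockout, a 5-array difference of 0.27 (SE 0.14) with overlapping groups. Mrps18b was at 0.23 (SE 0.10) without overlap in the 5 arrays. Mrps7, whose bacterial counterpart starts the assembly of the small subunit's head, had 7.68, 7.63 and 6.77 against 7.90, 7.77 and 7.81, and a difference of 0.18 (SE 0.09). These 3 genes had limma adjusted p-values between 0.249 and 0.327 with 5 arrays, and with 6 arrays their differences were 0.62, 0.0057 and 0.47.

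Of the 13 small-subunit genes that were lower in knockout without wild-type replicate 3, Mrps23, Mrps31 and Mrps9 had the smallest p-values. Mrps23, specific to mitochondria, had 7.63, 7.54 and 6.68 in wild type and 7.47, 7.27 and 7.39 in knockout. Its 5-array difference was -0.21 (SE 0.10), and that of Mrps31, another mitochondria-specific protein, was also -0.21 (SE 0.13), while with 6 arrays they were 0.09 and -0.17. Mrps9 was at -0.14 with 5 arrays (SE 0.12) and 0.55 with 6, and with 5 arrays its 3 dimmer probe sets lay between -0.14 and -0.21. With 6 arrays these 3 were at -0.10, 0.02 and 0.16, below the brightest probe set. Mrps5, the counterpart of a bacterial protein near the entry of the messenger RNA, was at -0.10 (SE 0.15) with 5 arrays and -0.23 (SE 0.24) with 6.

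**Figure D3:**
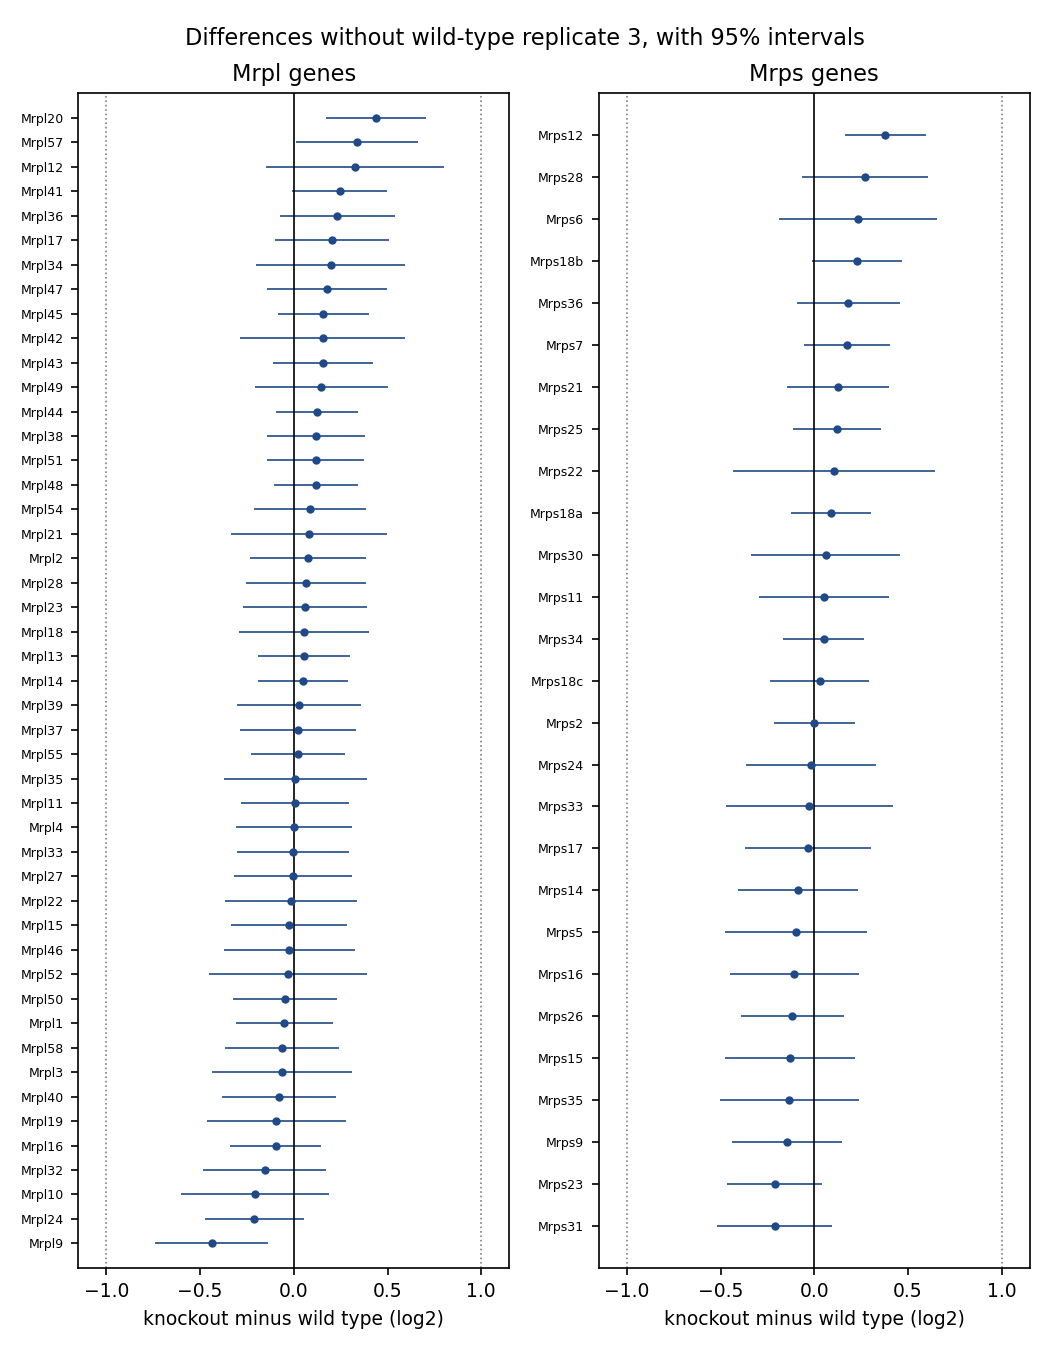
Difference of each gene (knockout minus wild type, log2) without wild-type replicate 3, with its 95% interval from the limma fit; dotted lines mark differences of 1 in either direction. All 74 intervals lie inside the dotted lines, and 4 of them exclude 0 before adjustment, those of Mrpl20, Mrpl57, Mrps12 and Mrpl9.

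Groups that did not overlap were counted against the rest of the array. With 6 arrays, 13 of 74 members (17.6%) had all knockout arrays above all wild-type arrays, against 10.8% of all genes tested, and 0 had all of them below, against 5.43%. With 5 arrays, 15 members (20.3%) lay wholly above, against 16.8% of genes, and 6 (8.11%) wholly below, against 32.8%. The 6 lower ones were Mrpl9, Mrpl16, Mrpl24, Mrps9, Mrps23 and Mrps31. The 15 higher ones held the 13 of the 6-array count and, in addition, Mrpl45 and Mrps18b, whose value in wild-type replicate 3 was high.

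The subunits gave similar figures. The 5-array median was 0.05 for 47 Mrpl genes, of which 30 were higher in knockout, and 0.03 for 27 Mrps genes, of which 14 were higher. Split by ancestry and by the subunit in which each protein is found, the 20 large-subunit proteins specific to mitochondria had a median of 0.10, with 15 higher in knockout. The 29 large-subunit proteins with bacterial counterparts were at 0.01, the 16 such small-subunit proteins at 0.01 and the 8 small-subunit proteins specific to mitochondria at -0.07, with 3 higher. With 6 arrays the medians were 0.40, 0.38, 0.40 and 0.22 in the same order. Mrps30 and Mrps18a were counted with the large subunit, where their proteins are found. Mrps18a was counted there as specific to mitochondria, while Mrps18b and Mrps18c, of the same name series, were counted with the bacterial counterparts. Mrps36, now known as a component of the 2-oxoglutarate dehydrogenase complex, was left out of the split. None of these differences between subsets was tested.

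Mrpl58, a peptidyl-tRNA hydrolase built into the large subunit that frees stalled chains, lay at 8.61, 8.45 and 6.60 in wild type and 8.58, 8.30 and 8.52 in knockout, a 5-array difference of -0.06 (SE 0.12). Mrpl45, which helps hold the ribosome at the inner membrane, had 7.26, 7.26 and 7.54 against 7.51, 7.32 and 7.41, a difference of 0.16 (SE 0.10). The proteins at the chain exit and at the rescue site thus gave differences inside the range of the rest.

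Several probe sets measured 33 members, 24 of which had more than 1 probe set above the filter. Of these 24, 9 had probe sets of opposite sign with 6 arrays and 10 with 5 arrays. None of the 107 tested probe sets of the family passed the threshold in limma in either comparison, with 0 and 5 at an unadjusted p under 0.05.

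**Figure D4:**
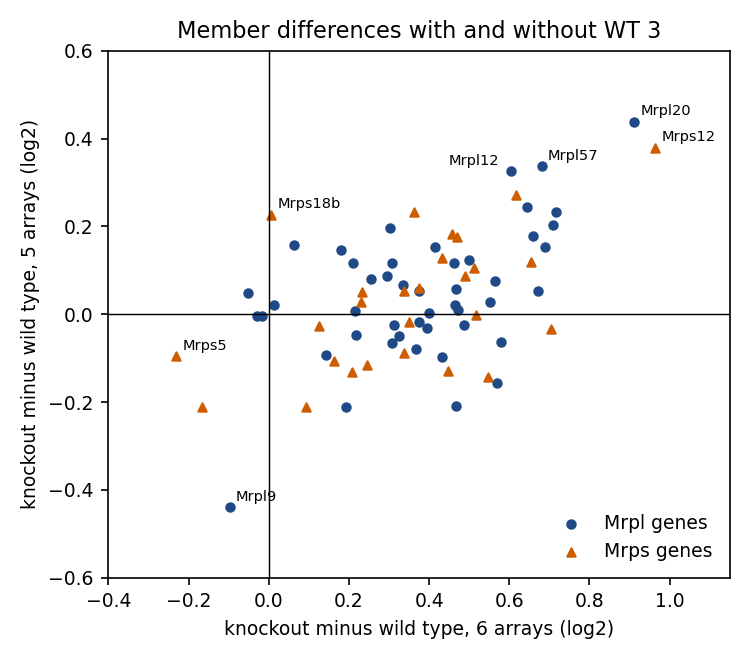
Difference of each gene (knockout minus wild type, log2) with 6 arrays on the horizontal axis and without wild-type replicate 3 on the vertical axis, for 47 Mrpl genes (blue circles) and 27 Mrps genes (orange triangles). Most points lie right of 0 on the horizontal axis (68 of 74) while they straddle 0 on the vertical axis (44 above); both axes share the knockout arrays and 2 of the wild-type arrays.

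Knockout replicate 2 and wild-type replicate 3 were also left out together, with 2 arrays a group. Knockout replicate 2 was low for most members, so leaving it out raises their differences by construction, and the values that follow are a description and support no direction. In these 4 arrays, 11 of 74 members (14.9%) passed an adjusted p of 0.05 in limma, while 20.1% of all genes tested did. Of the 11, 10 were higher in knockout (13.5% of members, against 9.07% of genes) and 1 was lower (1.35%, against 11%). The difference was 0.50 for Mrpl20 (SE 0.08), 0.51 for Mrpl12 (SE 0.09) and 0.38 for Mrps12 (SE 0.07). The other higher ones were Mrpl34, Mrpl36, Mrps6, Mrpl17, Mrps28, Mrpl41 and Mrpl47, with differences between 0.28 and 0.38. Mrpl9 was the lower one, at -0.34 (SE 0.07). The share of members called was thus below that of all genes, and the calls rest on the exclusion of both arrays. Weighting each array by its quality in the 5-array comparison called 18 of 74 members, 17 higher and 1 lower in knockout. Over the whole array it called 3783 of 13575 probe sets. The share of all genes and its split by direction were not counted in this setting, so the 17 and 1 support no direction.

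The genes that work with the mitochondrial ribosome gave no call in limma in either comparison, and none had an unadjusted p under 0.05 with 6 arrays. Over all genes tested, 4.48% had such a p with 6 arrays and 22.7% with 5. Except for the regulators of mitochondrial gene expression, the lists were matched to the array only in part. Found were 4 of 5 ribosomal proteins with other names, 6 of 11 translation factors and 8 of 17 synthetases. For assembly 14 of 19 genes were found, for the mitochondrial genome 13 of 15 and for the inner membrane 7 of 8. Of the proteins of the ribosome that have other names, Dap3, Ptcd3, Chchd1 and Gadd45gip1, 0 of 4 passed, with 5-array differences of -0.15, -0.22, 0.0115 and 0.24. Of the translation factors, 0 of 6 passed, with a 5-array median of -0.14, and the initiation factor Mtif2 was at -0.44 (SE 0.19). Of the mitochondrial aminoacyl-tRNA synthetases, which charge transfer RNAs, 0 of 8 passed, with a 5-array median of -0.12 and 1 at an unadjusted p under 0.05, Iars2, the isoleucine enzyme, at -0.44 (SE 0.15).

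Of 14 genes for assembly of the ribosome and modification of its RNA, 0 passed and 3 had an unadjusted p under 0.05 with 5 arrays. All 14 were lower in knockout in the 5 arrays, with a median of -0.21. Over all genes tested with 5 arrays, 22.7% had an unadjusted p under 0.05 and 4905 of 8190 were lower. Nsun4, an RNA methyltransferase of the ribosome, was at -0.57 (SE 0.17, limma adjusted p = 0.142), Mterf3 at -0.36 (SE 0.13) and Mrm2 at -0.25 (SE 0.09). With 6 arrays 8 of the 14 were lower and the median was -0.02, where 64.3% of all genes tested were higher. Of 13 genes that copy, transcribe and process the mitochondrial genome, 0 passed and 3 had an unadjusted p under 0.05, 10 were lower with 5 arrays and the median was -0.23, while with 6 arrays 10 were higher and the median was 0.19. The transcription factor Tfb2m was at -0.43 (SE 0.10, limma adjusted p = 0.1005), Trmt10c, a subunit of the mitochondrial RNase P, at -0.38 and the polymerase Polg at -0.37.

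Of 8 tested regulators of mitochondrial gene expression, 0 passed and 3 had an unadjusted p under 0.05 with 5 arrays, where 22.7% of all genes tested did. Gabpa, a subunit of the ETS factor named above, averaged 7.96 in wild-type replicates 1 and 2 and 7.53 ± 0.094 (SD, n = 3) in knockout and was at 5.71 in wild-type replicate 3, a 5-array difference of -0.44 (SE 0.10, limma adjusted p = 0.0947). Yy1 was at -0.33 (SE 0.09, limma adjusted p = 0.126), the coactivator Pprc1 at -0.32 and Myc at -0.17 (SE 0.20). Of 7 genes for insertion of the products into the inner membrane and their quality control, 0 passed and the 5-array median was -0.14, with the protease Yme1l1 at -0.22 (SE 0.10). With 5 arrays the medians of 6 of these 7 lists, all but the 4 proteins with other names at -0.07, lay between -0.12 and -0.23, where the members were at 0.04 and all genes tested at -0.06. With 6 arrays these 6 medians lay between -0.02, for the assembly genes, and 0.27, and that of the 4 proteins with other names was 0.30. The lists were not tested against each other.

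The cell division genes were set beside the family. The summed linear signal of 15 proliferation genes was 5981, 6459 and 2514 in wild type and 8676, 6368 and 8631 in knockout, with a median 5-array difference of 0.34, and 0 of 14 tested genes passed in limma, with 7 at an unadjusted p under 0.05. Over all genes tested with 5 arrays, 22.7% had an unadjusted p under 0.05. Mki67 had 8.04, 8.39 and 5.81 in wild type against 9.07, 8.85 and 9.07 in knockout. Knockout replicates 1 and 3 were thus high and knockout replicate 2 lower in this sum, the order that most members showed among the knockouts. The relation was not tested.

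**Figure D5:**
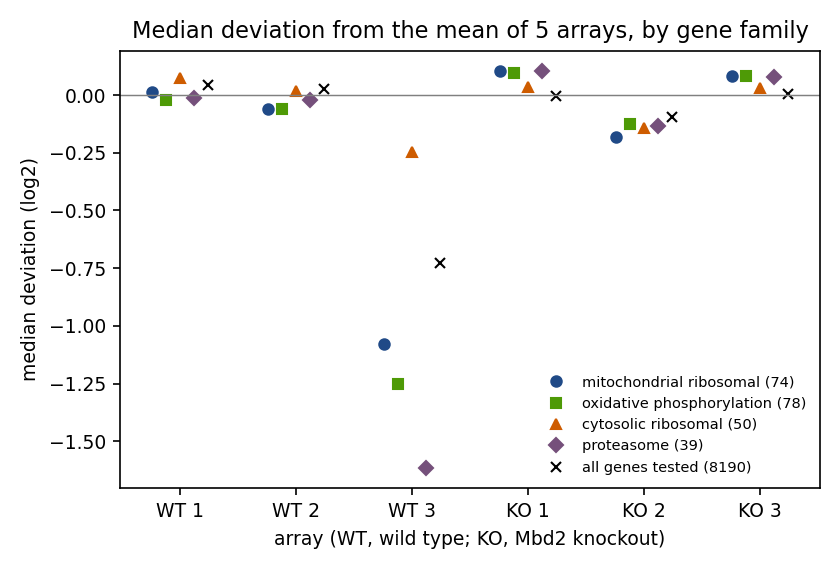
Median deviation of 4 gene families and of all genes tested (log2, each gene against its mean over the 5 arrays other than WT 3) in each array. In WT 3 the mitochondrial ribosomal genes lie at -1.08, between the cytosolic ribosomal genes at -0.25 and the proteasome at -1.62.

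Against 3 other families of large complexes, the members were compared array by array. In wild-type replicate 3 the median deviation was -1.08 for the members, -1.25 for 78 oxidative phosphorylation subunits, -1.62 for 39 proteasome subunits, -0.25 for 50 cytosolic ribosomal proteins and -0.73 for all genes tested. In knockout replicate 2 it was -0.18, -0.13, -0.14, -0.14 and -0.09 in the same order, and in knockout replicate 1 it was 0.11, 0.10, 0.10, 0.03 and -0.0019. The 5-array medians of the difference were 0.04 for the members, 0.07 for oxidative phosphorylation, 0.04 for the proteasome and -0.07 for cytosolic ribosomal proteins, of which 11 of 50 were higher in knockout. With 6 arrays they were 0.38, 0.45, 0.59 and 0.02. None of these families had a gene past the threshold in limma in either comparison. With 5 arrays 22.7% of all genes tested had an unadjusted p under 0.05. Such a p was reached by 3 of 76 tested oxidative phosphorylation, 2 of 38 proteasome and 4 of 46 cytosolic ribosomal genes. With 6 arrays it was reached by 0 genes of these families, against 4.48% of all genes tested. The differences between families were not tested.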

How the data were processed

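Expression was measured on 6 single-colour arrays. The deposited values are log2 expression per probe set; the authors used RMA, per the submitters' processing notes, but neither its version nor which arrays were normalized together is stated. Of 22690 probe sets, 64 controls were left out. Symbols came from the platform annotation (20380 probe sets with 1 symbol, 691 with several, 1555 not listed), updated by gene ID through RefSeq (GRCm38.p6).

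Probe sets in the dimmest 40% (mean under 5.18) were left out; limma 3.58.1 (R 4.3.3) was fitted to the other 13575 (group as the only term, Benjamini-Hochberg over all of them, threshold 0.05), with 6 arrays and without wild-type replicate 3. Intervals are 95% and come from that fit; the number of arrays limits the precision. The fit was tested on simulated data.

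Members, gene lists and tests were chosen with earlier results of these data known. Named were, in each fit, the 3 members with the smallest p per direction and subunit, members past the threshold, Mrpl12, Mrps5, Mrpl44 and Mrps12, and up to 3 genes per pathway list by p without wild-type replicate 3. Mrpl45, Mrpl58, Mrps17, Mrps22, Mrpl32, Myc and Mki67 and names given in counts were chosen after their values were seen. Figures used matplotlib 3.10.9.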

Additional observations from a re-analysis of the deposited data

How the results depend on the processing

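With 6 arrays, limma called 0 members without a filter, with a filter at 60%, with trend and robust estimation of the variance, after quantile normalization or median centring, at an adjusted threshold of 0.1, at 1.5-fold with the unadjusted p, with probe sets averaged by gene, the replicate number as a block (0 with 5 arrays too) and each array left out in turn. Array quality weights gave 9 calls, among 2323 of 13575 probe sets, and the 4 arrays without either doubtful replicate gave 11. With 5 arrays, an adjusted p under 0.1 called 1 member (Mrps12), and the share of all genes at 0.1 was not counted. Weights called 18 of 74 members, 17 higher and 1 lower in knockout, among 3783 of 13575 probe sets, whose split by direction was not counted. Leaving out knockout replicate 1 or 3 called 0 members. Leaving out knockout replicate 2 called 11, among 2537 of 13575 probe sets. The other settings applied to all 5 arrays called 0. With 6 arrays the weights were 0.448, 4.39 and 0.0289 for wild-type replicates 1, 2 and 3 and 8.24, 0.585 and 3.65 for the knockouts. The wild-type side of the weighted 6-array fit thus rests mostly on replicate 2. With 5 arrays the weight was 0.13 for knockout replicate 2, against 0.837 to 3.19 for the other arrays. The median difference ranged from 0.0385 (without wild-type replicate 3) to 0.57 with 6 arrays, and from -0.0091 to 0.11 with 5.

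Same-numbered samples were not taken as pairs: the correlations of their deviations were 0.15, -0.0919 and -0.141. The block moved the count over all probe sets from 14 to 10 with 6 arrays and from 190 to 561 with 5, where 34 members were then higher in knockout. With 5 arrays knockout replicate 3 is alone in its block. The differences of that fit are therefore those obtained without knockout replicate 3, and it is not a separate setting.

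Some named differences changed sign. With weights and 6 arrays, Mrpl10 was at -0.11, Mrpl14 at 0.068, Mrpl24 at -0.12, Mrpl27 at 0.049 (0.086 with 5), Mrps23 at -0.11 and Mrps9 at -0.036. Without both arrays they were -0.061, 0.078, -0.14, 0.097, -0.16 and -0.054, and Mrps5 was at 0.038. Quantile normalization gave Mrpl24 -0.19, Mrps18b -0.31 and Mrps23 -0.069, and Mrpl27 0.032 with 5 arrays. Median centring gave Mrpl14 0.0031 and Mrpl27 0.024. Leaving out 1 array at a time from 6, Mrpl10 ran from -0.21 to 0.82, Mrpl14 from -0.12 to 0.048, Mrpl24 from -0.21 to 0.41, Mrpl27 from -0.082 to 0.072, Mrpl9 from -0.44 to 0.086, Mrps18b from -0.13 to 0.23, Mrps23 from -0.21 to 0.27 and Mrps9 from -0.14 to 0.90. From 5, Mrpl27 ran from -0.057 to 0.097 and Mrps5 from -0.20 to 0.038. The cause was not tested. Where a group was left with 1 array, it was assumed to vary like the other group.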
